A study of Mus musculus with 9 samples.

Results

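Genes for fibril-forming collagens and for a collagen that associates with fibrils were followed in the mouse colon: Col1a1, Col1a2, Col3a1, Col5a1, Col5a2, Col5a3 and Col14a1. They were taken by name as the members of these collagen families, with no threshold on their values, and are 7 of the 84 genes on a PCR array of wound healing, 6 of them fibrillar. All mice were C57bl6J females of 8 to 9 weeks. Untreated mice (UN) drank regular water, DSS mice drank 3% dextran sodium sulfate for 7 days, which injures the colonic epithelium and causes colitis, and DSS+DPG mice drank the same DSS and received 8 mg/kg/day of dipotassium glycyrrhizate (DPG), a salt of the licorice compound glycyrrhizin, in PBS by oral gavage. A gavage of PBS alone in the other groups is not stated in the sources used here, so the effect of the gavage and that of DPG cannot be told apart. Each group is a single pool of colon RNA from 5 mice, and each of the 3 pools was run on 3 arrays. These are technical repeats, so a p-value here says how a difference compares with the scatter of repeated arrays, and nothing of the scatter between mice. Whether all 3 arrays of a pool were separate runs could not be settled from the files, and the SEs and p-values count each as one.

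Collagen I, the main fibre of scar and submucosa, is a triple helix of chains from Col1a1 and Col1a2, whereas collagen III is built only from the chain of Col3a1 and is laid down early in a healing wound. Collagen V, from Col5a1, Col5a2 and Col5a3, starts and thins the fibrils of collagen I, and collagen XIV, from Col14a1, does not form fibrils itself but binds to their surface and spaces them. In the gut these genes are transcribed mainly by fibroblasts and other mesenchymal cells. In RNA of whole tissue, fewer cells of a type and less RNA per cell cannot be told apart.

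The measured value was the threshold cycle (Ct), on a log2 scale where an earlier cycle means more template. The 7 genes gave a Ct in every array, from 20.45 to 29.09 across the UN arrays, from 19.21 to 29.13 with DSS and from 23.97 to 32.52 with DSS+DPG. Delta Ct is obtained in each array by subtracting from a gene's Ct the average of 5 housekeeping genes, Actb, B2m, Gapdh, Gusb and Hsp90ab1, so a lower delta Ct means more transcript. Levels of different genes cannot be ordered on this scale, because each primer pair has its own efficiency. Each gene is therefore compared with itself across groups, and pairs of genes only by how their difference changes across groups. Differences in minus delta Ct, in log2 units, were tested with a limma fit of the 9 arrays together. The p-values were adjusted by the Benjamini-Hochberg method across the whole panel, and a gene was called at an adjusted p under 0.05. The arrays of a pool repeated closely, with a median SD per panel gene of 0.0522 cycles for UN, 0.0594 for DSS and 0.0651 for DSS+DPG.

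The housekeeping genes themselves moved, which touches every direction given here. Their mean Ct averaged 21.999 over the UN arrays, 22.23 with DSS and 23.44 with DSS+DPG, and between UN and DSS the Ct of B2m fell by 1.10 cycles whereas that of Hsp90ab1 was 1.08 cycles later. Most of the 84 genes also moved, with a median log2 difference of 0.71 for DSS against UN and of -1.30 for DSS+DPG against DSS. A reference takes the same amount from every gene of an array, so the order of the differences among the collagen genes does not depend on it, but their sign can. Each comparison is therefore also given against the median Ct of the other 77 panel genes and as raw Ct, and the collagen genes were compared with each other inside each array, where no reference enters. The median Ct of the other panel genes and the median of their changes are different measures. A gene's sign can differ between them.

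**Figure D1:**
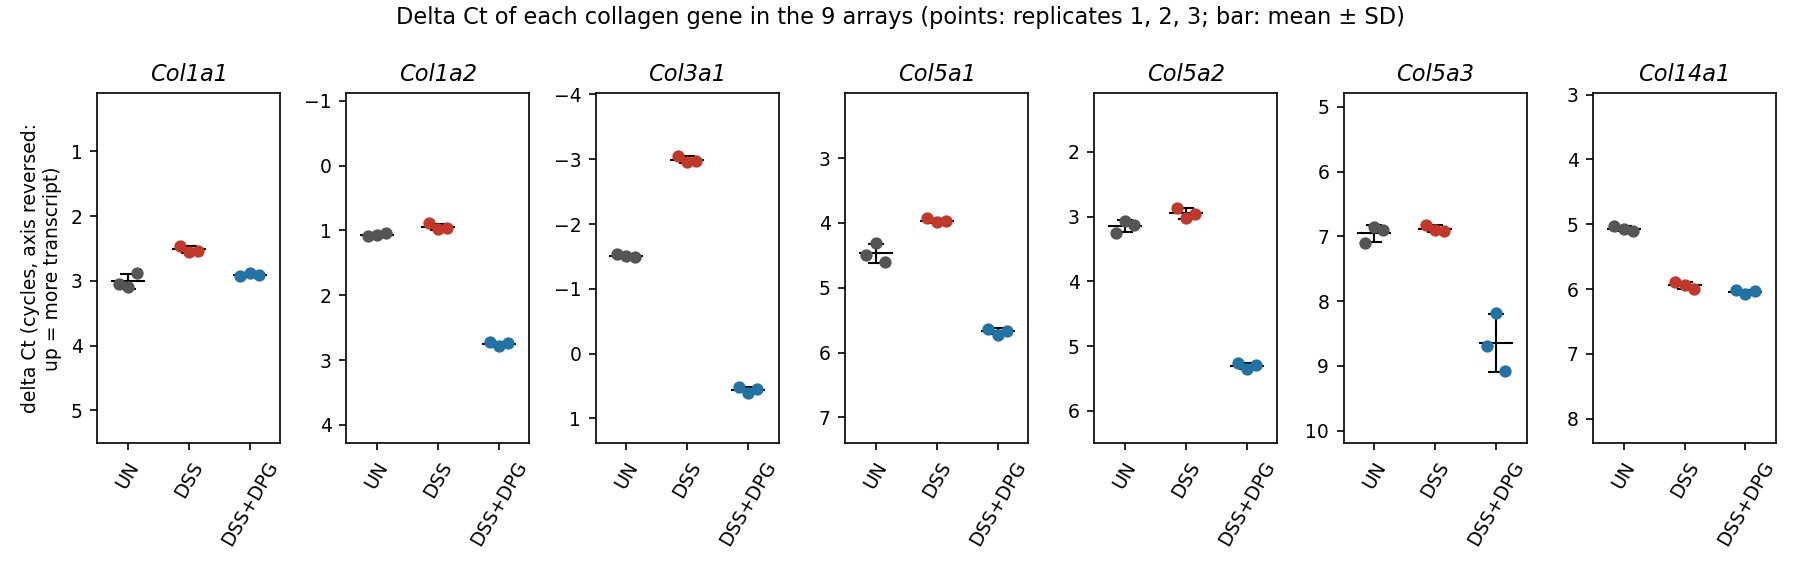
Delta Ct (cycles, axis reversed so that up means more transcript) of the 7 collagen genes in each of the 9 arrays, with the mean and SD of the 3 arrays of UN, DSS and DSS+DPG; every panel spans the same number of cycles. Col3a1 shows the widest steps, from a mean of -1.51 in UN to -2.99 in DSS and 0.56 in DSS+DPG, whereas Col1a1 stays between 2.52 and 3.01.

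The first comparison asked how the collagen genes stood in colitis. Against the housekeeping genes, Col3a1 was clearly higher in DSS, Col1a1 and Col5a1 were modestly higher, Col1a2 and Col5a2 were barely higher and Col14a1 was lower. The test called 5 of the 7 higher and 1 lower, beside 61.9% of all 84 panel genes higher and 29.8% lower. The arrays of the 2 groups did not overlap for 6 of the 7, beside 95.2% of the panel. The median log2 difference of the 7 was 0.20, below the 0.81 of the other 77 genes. Against the median Ct of those genes none of the 7 was called higher and 6 were called lower, beside 21 and 55 of the 84 panel genes. In raw Ct 3 were called higher and 2 lower, beside 48 and 29 of the 84. With the 5 housekeeping genes, no collagen gene reached 3.5-fold, the threshold in the methods, which 27.4% of the panel passed upward. This count rests on the reference. Col3a1 passed 3.5-fold upward without B2m, with Gapdh alone and against Itga3, Mif and Hsp90ab1 (by geometric mean), beside 31% of the panel in each. Against the panel median Col14a1 passed it downward, beside 26.2% of the panel.

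Of the chains of collagen I, Col1a1 had a delta Ct of 3.05, 3.10 and 2.87 in the UN arrays and of 2.46, 2.56 and 2.53 in the DSS arrays. All 3 DSS arrays thus lay on the side of more transcript, with a log2 difference of 0.49 (SE 0.061, limma adjusted p = 9.98e-05). Col1a2, its partner chain, had a delta Ct of 1.09, 1.08 and 1.03 in UN and of 0.89, 0.98 and 0.96 in DSS. The nearest arrays of the groups lay close together, and the log2 difference of 0.12 (SE 0.035, limma adjusted p = 0.011) became -0.09 when Hsp90ab1 was left out of the reference and -0.11 in raw Ct.

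Col3a1, the chain of collagen III, had a delta Ct of -1.54, -1.50 and -1.49 in UN and of -3.05, -2.95 and -2.97 in DSS. Every DSS array lay more than a cycle below every UN array, the widest gap among the 7 genes. The difference was 2.79-fold (log2 1.48, SE 0.038, limma adjusted p = 5.64e-09), although it was -0.05 and not called (limma adjusted p = 0.549) against the median Ct of the other panel genes. Relative to the median change of those genes Col3a1 stood at 0.67. A further copy of the raw values, in a supplementary workbook, lists Col3a1 a whole cycle later in the DSS arrays that it shares with the deposited table, while its averages match the deposited values, and which of them came from the instrument could not be settled. With Col3a1 set 1 cycle later in all DSS arrays, an alternative chosen after seeing the data, its difference from UN was 0.48 (limma adjusted p = 6.27e-06), close to those of Col1a1 and Col5a1.

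Among the chains of collagen V, Col5a1, which is part of nearly all its molecules, had a delta Ct of 4.50, 4.31 and 4.60 in UN and of 3.93, 3.99 and 3.97 in DSS, a log2 difference of 0.51 (SE 0.072, limma adjusted p = 0.000234). Col5a2, the second chain of the common form, had 3.25, 3.08 and 3.12 in UN and 2.87, 3.03 and 2.96 in DSS. The gap between the nearest UN and DSS arrays of Col5a2 was smaller than the spread within either group, and its difference of 0.20 (SE 0.060, limma adjusted p = 0.0137) was -0.02 without Hsp90ab1 and -0.03 in raw Ct. Col5a3, the chain of a rarer form, had 7.10, 6.86 and 6.90 in UN and 6.82, 6.91 and 6.91 in DSS. These arrays overlapped, and the difference of 0.07 did not pass the test (95% interval -0.40 to 0.55, limma adjusted p = 0.725).

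Col14a1 went the other way. Its delta Ct was 5.02, 5.08 and 5.10 in UN and 5.89, 5.94 and 5.99 in DSS. All DSS arrays had less transcript than all UN arrays, 1.83-fold lower (log2 difference -0.87, SE 0.039, limma adjusted p = 1.11e-07), and the sign was the same under every reference tried, with raw Ct included. The calls of Col1a2 and Col5a2, unlike those of the other 4 called genes, were lost when replicate 1 was left out of every group (limma adjusted p = 0.06 and 0.0728) and when replicate 3 was (0.0711 and 0.0993), leaving 3 of the 7 higher.

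**Figure D2:**
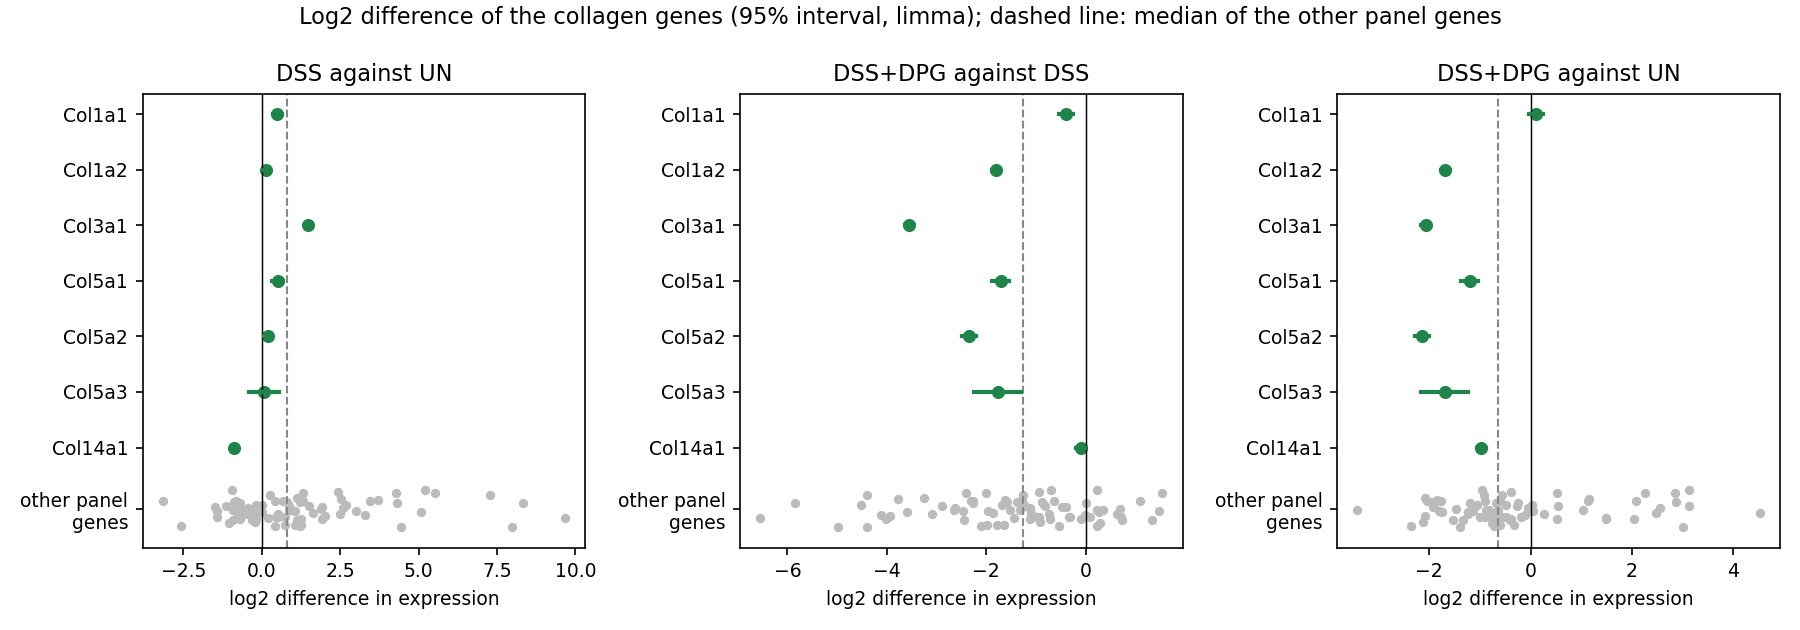
Log2 difference of each collagen gene in the 3 comparisons (points, with the 95% interval from limma, against the 5 housekeeping genes), beside the other panel genes (grey points) and their median (dashed line). In DSS against UN only Col3a1 lies above the median of 0.81 of the other genes, and in DSS+DPG against DSS Col1a1 and Col14a1 lie above their median of -1.26.

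The second comparison asked how the collagen genes stood when DPG was given with DSS. Against the housekeeping genes all 7 were called lower with DPG than with DSS alone and none higher, beside 76.2% and 13.1% of the panel, but by very unequal amounts. Against the median Ct of the other panel genes only Col3a1 and Col5a2 were called lower while Col1a1, Col5a1 and Col14a1 were called higher. Of all 84 panel genes 22 were called lower and 52 higher against that median Ct. The arrays of the 2 groups did not overlap for any of the 7, beside 90.5% of the panel. The fold of at least 3.5 was passed by 2 of the 7, Col3a1 and Col5a2, beside 34.5% of the panel, and Col1a2 (3.49-fold), Col5a3 (3.41-fold) and Col5a1 (3.27-fold) lay just under it. These 3 passed it too, making 5 of the 7, without Actb, without B2m and with Gapdh alone, beside 39.3%, 39.3% and 40.5% of the panel. They also did against Itga3, Mif and Hsp90ab1 (58.3% of the panel) and in raw Ct (70.2%). Against the panel median none of the 7 passed it downward and Col14a1 passed it upward, beside 11.9% and 22.6% of the panel. In raw Ct all 7 came later in DSS+DPG, as did nearly all of the panel, with a median shift of -2.47 log2 units over the other 77 genes.

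Col3a1 again moved most. Its delta Ct, -2.99 on average in DSS, was 0.52, 0.60 and 0.55 in the DSS+DPG arrays, which put them more than 3 cycles from every DSS array. The level was 11.7-fold lower than in DSS (log2 difference -3.55, SE 0.038, limma adjusted p = 4.42e-11), and 2.29 log2 units below the median change of the other panel genes. With Col3a1 set 1 cycle later in DSS the difference was -2.55 (limma adjusted p = 3.74e-10), still the lowest of the 7.

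Within collagen I the chains separated. Col1a2 had a delta Ct of 2.72, 2.78 and 2.74 in DSS+DPG, well above its DSS arrays (log2 difference -1.80, SE 0.035, limma adjusted p = 1.6e-09). Col1a1 had 2.93, 2.87 and 2.91, which lay apart from DSS but by only 0.39 log2 units (SE 0.061, limma adjusted p = 0.000406) and reached into the range of the UN arrays. Relative to the median change of the other panel genes Col1a2 stood at -0.55 and Col1a1 at 0.87.

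The chains of collagen V all had less transcript with DPG than with DSS alone against the housekeeping genes, Col5a2 by the most. Against the median Ct of the other panel genes Col5a1 was called higher (0.24), whereas the 0.18 of Col5a3 did not pass the test (limma adjusted p = 0.381). Relative to the median change of those genes the signs were opposite, -0.45 for Col5a1 and -0.51 for Col5a3. Col5a2 had a delta Ct of 5.26, 5.35 and 5.29 in DSS+DPG, a 5.09-fold lower level (log2 difference -2.35, SE 0.060, limma adjusted p = 3.28e-09). Col5a1 had 5.63, 5.72 and 5.67 (log2 difference -1.71, limma adjusted p = 7.55e-08). Col5a3 had 8.69, 8.18 and 9.08, by far the widest spread among the 21 sets of member arrays, with an SD of 0.457 cycles in raw Ct. All 3 of these Col5a3 arrays were nonetheless beyond the DSS arrays (log2 difference -1.77, SE 0.202, limma adjusted p = 5.7e-05).

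Col14a1, already lower in DSS, hardly moved further. Its delta Ct of 6.01, 6.07 and 6.04 in DSS+DPG was next to the highest DSS array, and the difference of -0.10 (SE 0.039, limma adjusted p = 0.0374) was lost when any of several arrays was left out (adjusted p between 0.022 and 0.231 over the arrays and replicate numbers left out) and was 0.10 when Hsp90ab1 left the reference. Relative to the median change of the other panel genes it stood at 1.16, the highest of the 7.

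The third comparison set DSS+DPG against UN, with the DSS+DPG arrays of the second comparison and the UN arrays of the first. Col3a1, Col5a2, Col1a2 and Col5a3 lay well below the untreated level, Col5a1 and Col14a1 somewhat below it and Col1a1 at it. The test called 6 of the 7 lower and none higher, beside 69.5% and 22% of the 82 panel genes tested, and the arrays of the same 6 did not overlap, beside 93.9% of the panel. The same 6 were called lower against the median Ct of the other panel genes. The share of the whole panel called lower under that reference is not given here, so this count shows nothing particular to the collagen genes. The median log2 difference of the 7 was -1.68 and that of the other genes -0.64.

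Col5a2 was 4.44-fold lower than in UN (log2 difference -2.15, SE 0.060, limma adjusted p = 1.02e-08) and Col3a1 4.19-fold (-2.07, SE 0.038, limma adjusted p = 1.15e-09), and these alone of the 7 passed 3.5-fold with the 5 housekeeping genes, beside 17.1% of the panel. The count was 4 against Itga3, Mif and Hsp90ab1 (24.4% of the panel), 6 in raw Ct (64.6%), 1 with Gapdh alone (3.66%) and 0 with the panel median (2.44%). Col5a2 was the third lowest of the 82 genes and Col3a1 the seventh by this difference. Col5a3, Col1a2, Col5a1 and Col14a1 followed with differences of -1.70, -1.68, -1.20 and -0.97 (limma adjusted p from 2.14e-09 to 6.26e-05). The arrays of Col1a1 overlapped between the groups, and its difference of 0.10 did not pass the test (95% interval -0.04 to 0.24, limma adjusted p = 0.133). Against UN, Col1a1 is the gene whose call rests most on the reference. It was called higher without B2m (0.31), with Gapdh alone (0.43), with the panel median (0.53) and without UN replicate 3 (0.17), and its difference was -0.32 against Itga3, Mif and Hsp90ab1 (by geometric mean), which is the reference found in the deposited average delta Ct, and -1.34 in raw Ct.

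**Figure D3:**
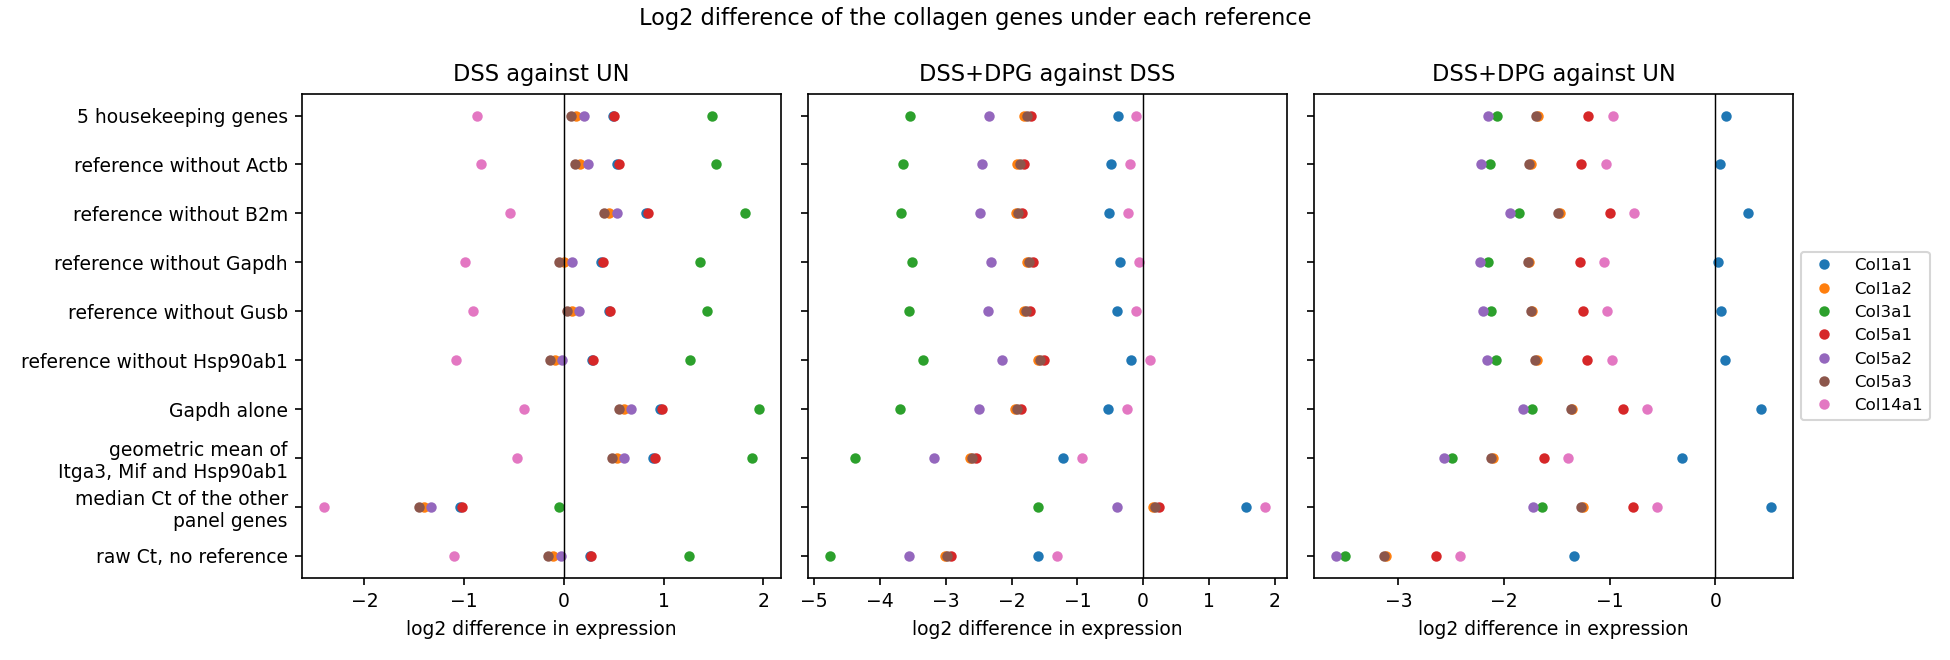
Log2 difference of the 7 collagen genes in the 3 comparisons (columns) under each of the references tried (rows), each point being a gene. Every row shifts the genes together, so that in DSS against UN Col3a1 moves from 1.48 with the 5 housekeeping genes to -0.05 with the median Ct of the other panel genes while remaining the highest of the 7.

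The genes were next compared with each other inside each array, as the difference in raw Ct of a pair of genes, in 5 pairs and 3 comparisons. Folds from these differences take every cycle as a doubling for both primer pairs, which was not tested. Exact two-sided permutation tests over 3 arrays against 3 cannot give a p under 0.1, so none of the 15 tests can pass the threshold, and 13 reached that smallest p (0.115 after Benjamini-Hochberg adjustment over the 15). Those 13 are the ones whose arrays do not overlap.

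The gap between the chains of collagen I moved in the same direction at each step. Col1a2 minus Col1a1 was -1.96, -2.02 and -1.84 in the UN arrays, -1.57, -1.58 and -1.57 with DSS and -0.21, -0.09 and -0.17 in DSS+DPG. Col1a2 thus lost ground to Col1a1 by 0.37 cycles (SE 0.053) between UN and DSS and by 1.42 (SE 0.035) between DSS and DSS+DPG, 3.44-fold over both. Col3a1 minus Col1a1 was -4.59, -4.60 and -4.36 in the UN arrays, -5.51, -5.51 and -5.50 with DSS and -2.41, -2.27 and -2.36 in DSS+DPG. Col3a1 thus gained 1.99-fold on Col1a1 with DSS and lost 8.94-fold with DPG. With Col3a1 set 1 cycle later in DSS, the gain with DSS was gone (0.01 cycles) and the loss with DPG was 2.16 cycles instead of 3.16, whereas the loss of 2.17 cycles (SE 0.088) from UN to DSS+DPG does not involve those arrays.

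Within collagen V, Col5a2 minus Col5a1 was -1.25, -1.23 and -1.48 in the UN arrays, -1.06, -0.96 and -1.01 with DSS and -0.37, -0.37 and -0.38 in DSS+DPG. Col5a2 therefore fell behind Col5a1 by 0.31 cycles (SE 0.085) and then by 0.64 (SE 0.029), with the larger step at DPG, as for the chains of collagen I. Col5a3 minus Col5a1 was 2.60, 2.55 and 2.30 in the UN arrays, 2.89, 2.92 and 2.94 with DSS and 3.06, 2.46 and 3.41 in DSS+DPG. Only the step from UN to DSS was free of overlap (0.43 cycles, SE 0.094). The step with DPG was 0.06 cycles (SE 0.278, exact permutation p = 0.7) and became -0.16 without DSS+DPG replicate 3.

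Col14a1 minus Col1a1 was 1.97, 1.98 and 2.23 in the UN arrays, 3.43, 3.38 and 3.46 with DSS and 3.08, 3.20 and 3.13 in DSS+DPG. The fibril-associated gene thus lost 2.57-fold on Col1a1 with DSS and regained 1.22-fold of it with DPG, leaving it 2.11-fold behind the untreated state.

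**Figure D4:**
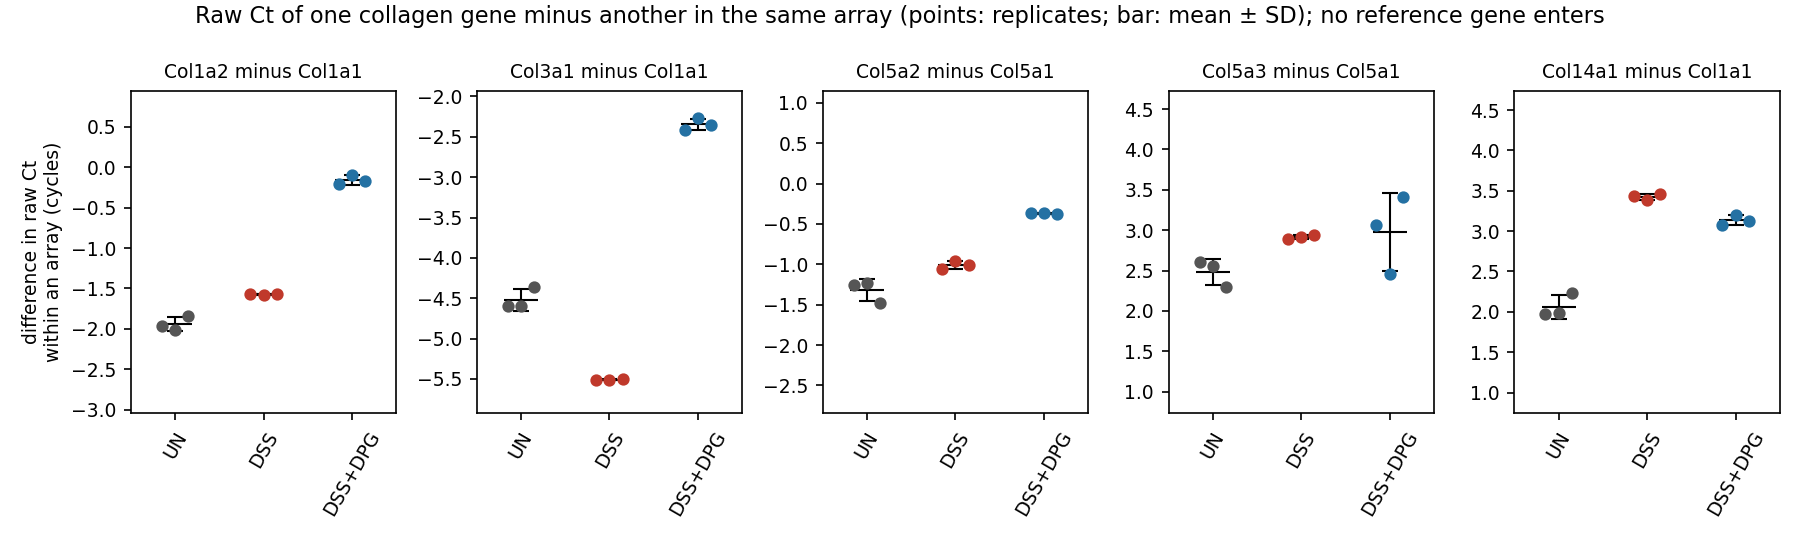
Raw Ct of a collagen gene minus that of another in the same array (cycles) for 5 pairs, with the 3 arrays of each group as points and their mean and SD. The 3 arrays of each group lie apart from those of the others in every panel except Col5a3 minus Col5a1, where DSS+DPG spans 2.46 to 3.41 and covers the DSS arrays.

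Over the 3 group means, each centred on its own average, the 7 genes did not share a single profile. As a description over 3 groups, Col1a2 and Col5a3 lay closest, 0.036 log2 units apart (Euclidean distance), and Col5a1 and Col5a2 were within 0.357 and 0.417 of Col1a2. The distance of 0.036 is far smaller than the scatter of Col5a3 in the DSS+DPG arrays, with an SD of 0.449 cycles of delta Ct. Col3a1 was at least 1.02 from every other member and lay farthest from Col14a1, at 2.49, but part of this separation rests on its DSS values. With Col3a1 set 1 cycle later in DSS it lay 0.206 from Col5a2 and 0.526 from Col1a2. It was then still 1.73 from Col14a1 and 1.77 from Col1a1. Among the 77 other panel genes, those nearest to the median profile of the 6 fibrillar genes were Itga5, the alpha chain of the main fibronectin receptor (0.310), Wnt5a, a secreted Wnt ligand (0.372), and Ctsl, the lysosomal protease cathepsin L (0.373), against a median distance of 1.37; with that later Col3a1 they were Ctsl (0.259), Hbegf, a ligand of the EGF receptor (0.333), and Itga5 (0.356). Nearest to Col14a1 were Rhoa, a small GTPase of the cytoskeleton (0.132), Ctnnb1, the gene of beta-catenin (0.212), and Itga6, the alpha chain of laminin receptors (0.239), against a median of 1.51. Of the fibrillar genes, only Col1a2 and Col5a3 had a member as the nearest panel gene. Col1a1 was nearest to Stat3 (0.156), Col5a1 to Wnt5a (0.161), Col5a2 to Hbegf (0.381) and Col3a1, as deposited, to Fgf10 (0.275).

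The genes lie on 6 chromosomes, 11 (Col1a1), 6 (Col1a2), 1 (Col3a1 and Col5a2), 2 (Col5a1), 9 (Col5a3) and 15 (Col14a1). Col3a1 and Col5a2, the pair with the largest falls with DPG, are neighbours with 0 protein-coding genes between them in the RefSeq annotation of GRCm38.p6. RefSeq promoter sequences were at hand for 4 of the 7. The 250 bases before the annotated start are shown for Col1a2 and Col5a3, the pair nearest in group means, and for Col3a1. The distance of Col3a1 from them rests in part on the deposited DSS values. Sequences run 5′ to 3′ on the strand of the gene. Capitals mark matches on either strand to CCAAT (the CCAAT box), GGGCGG (the GC box) and TATAAA (the TATA box).
Col1a2, chr6:4505368-4505617, plus strand: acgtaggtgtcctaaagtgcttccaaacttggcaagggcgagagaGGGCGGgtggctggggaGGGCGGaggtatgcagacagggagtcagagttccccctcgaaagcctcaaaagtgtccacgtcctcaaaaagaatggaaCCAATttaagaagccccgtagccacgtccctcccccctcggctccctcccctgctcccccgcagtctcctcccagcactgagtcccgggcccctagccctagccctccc
Col5a3, chr9:20815068-20815317, minus strand: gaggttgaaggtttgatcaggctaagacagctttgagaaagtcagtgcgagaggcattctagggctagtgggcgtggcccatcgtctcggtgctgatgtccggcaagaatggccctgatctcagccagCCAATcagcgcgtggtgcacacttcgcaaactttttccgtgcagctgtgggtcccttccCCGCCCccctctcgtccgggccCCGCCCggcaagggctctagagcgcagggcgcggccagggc
Col3a1, chr1:45311288-45311537, plus strand: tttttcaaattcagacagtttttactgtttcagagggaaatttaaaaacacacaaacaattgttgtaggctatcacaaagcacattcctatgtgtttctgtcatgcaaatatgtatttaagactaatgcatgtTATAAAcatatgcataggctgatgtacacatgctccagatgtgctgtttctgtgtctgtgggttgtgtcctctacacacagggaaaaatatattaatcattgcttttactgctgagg

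Col1a2 and Col5a3 each held 1 CCAAT match and 2 GGGCGG matches, and their CCAAT matches lay 109 and 122 bases before the start. Over the 32851 RefSeq promoters with a window of this length, 33.8% held CCAAT, 32.7% GGGCGG and 12.4% TATAAA, so each of these letters is common. The window of Col3a1 held neither of the first and 1 TATAAA match, 117 bases before the start, and its GC content of 35.2% was far below the 62.0% of Col1a2 and the 62.8% of Col5a3, with a median of 52.4% over all promoters. Col5a1, also at hand, held 2 matches to the GC box and none to the others, with 76.4% of its bases being G or C. These matches describe the letters only.

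Around the fibrillar genes, the other collagens on the array are the chains of the basement membrane collagen IV. Col4a1 averaged 3.08 ± 0.11 cycles of delta Ct in UN (SD over 3 arrays), 1.96 ± 0.041 in DSS and 4.41 ± 0.18 in DSS+DPG, a rise of 1.12 log2 units and then a difference of -2.45, in the manner of Col3a1, although the rise was -0.41 against the median Ct of the other panel genes. Col4a3, with late raw Ct of 31.84 to 36.36, was 5.99-fold lower in DSS than in UN (limma adjusted p = 0.000116), and its difference with DPG did not pass the test (0.23, limma adjusted p = 0.523).

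Of the 7 genes for proteases that cut collagen and their inhibitor, 5 were higher and 2 lower in DSS than in UN, led by Timp1, the tissue inhibitor of metalloproteinases (4.30), and Mmp9, a gelatinase (2.48), but against the median Ct of the other panel genes 2 were higher and 4 lower. The lower ones were Mmp1a, a collagenase (-0.43), and Ctsl (-0.20), and both calls were lost or turned without B2m. With DPG, 6 of the 7 were lower than in DSS, with Mmp9 at -3.08 and Timp1 at -2.26, and Mmp7, matrilysin, was higher (0.68, but -0.53 in raw Ct); against the panel median 5 were higher and 2 lower. Timp1 (2.04) and Mmp7 (2.56) stayed above the untreated level in DSS+DPG, while the other 5 were lower, of which 2 were still called lower against the panel median.

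Of 4 genes of TGF beta signalling and matricellular proteins, 3 were higher in DSS than in UN, Tgfbr3, the co-receptor betaglycan, by 1.31 and Tgfb1, the ligand known to induce fibrillar collagens in fibroblasts, by 1.24, but none was higher and 3 were lower against the panel median. Ctgf, a matricellular gene that often follows TGF beta, had -0.77 and did not pass the test (limma adjusted p = 0.0569). All 4 were lower in DSS+DPG than in DSS, with Ctgf at -2.65 and Tgfbr3 at -2.27, but only 1 was lower and 1 was higher against the panel median. Relative to UN, Ctgf stood at -3.42 and Tgfbr3 at -0.96, whereas Tgfb1 was higher by 0.53 (-0.91 in raw Ct). Of the 3 genes of the collagen-binding integrins, Itga1 (-0.47) and Itga2 (-0.18) were lower and Itgb1, the shared beta chain, was higher (0.25) in DSS than in UN, where Itga1 was 0.01 and Itga2 0.29 with Gapdh alone and Itgb1 -1.28 with the panel median. Itgb1 (-1.26) and Itga1 (-0.73) were lower in DSS+DPG than in DSS, where all 3 were higher against the panel median, and all 3 were lower than in UN, 2 of them with Gapdh alone.

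Markers of the cell types in the tissue also differed between the groups. The summed level of the 7 collagen genes, as 2 to the power of minus delta Ct, ranged from 3.62 to 3.68 in UN, from 8.63 to 9.24 in DSS and from 1.00 to 1.04 in DSS+DPG and is weighted most by Col3a1, which has the earliest Ct. With Col3a1 set 1 cycle later, the DSS range was 4.76 to 5.10. Because primer pairs differ in efficiency, such a sum is no amount of RNA, and each sum is compared only with itself across groups. The 4 other stromal genes, Fgf7, Fgf10, Hgf and Igf1, were all higher in DSS and all lower with DPG than with DSS alone, and had a summed level of 0.0764 to 0.0801, 0.239 to 0.247 and 0.0578 to 0.0626; against the panel median 2 were higher and 2 lower in each of these comparisons. In DSS+DPG against UN, Hgf was higher (1.48) while Fgf7 (-2.09), Fgf10 (-2.13) and Igf1 (-0.38) were lower. The mean raw Ct of Hgf was 28.80 in UN and 28.76 in DSS+DPG. Fgf7 in DSS and Hgf in DSS+DPG have offsets of the same kind as Col3a1 in the supplementary workbook. The 3 smooth muscle and myofibroblast genes, Acta2, Actc1 and Tagln, were all lower in DSS than in UN (2 of the 3 without B2m in the reference), from 4.57 to 6.06 down to 2.44 to 2.55, and stood at 1.39 to 1.44 in DSS+DPG. Between DSS and DSS+DPG they did not move together: Acta2 (-0.40) and Tagln (-1.12) were lower and Actc1 was called higher (1.10, limma adjusted p = 1.63e-05; 0.28 and not called against Itga3, Mif and Hsp90ab1, -0.11 in raw Ct), and all 3 were higher against the panel median. The summed levels of the other lists in UN, DSS and DSS+DPG were 0.640 to 0.711, 0.370 to 0.389 and 0.403 to 0.409 for 3 epithelial genes, 0.0383 to 0.0395, 0.686 to 0.697 and 0.0563 to 0.0579 for 4 genes of neutrophils and macrophages, and 0.000983 to 0.00115, 0.00862 to 0.00885 and 0.00513 to 0.00609 for 4 lymphocyte genes. These lists were not uniform either. Of the 4 genes of neutrophils and macrophages, Il1b (2.87) and Plaur (1.16, but later in raw Ct) were higher in DSS+DPG than in UN. The others, F13a1 (-0.90) and Mmp9 (-0.61), were lower there. Itgb6, an epithelial integrin chain, was higher in DSS than in UN (0.45) while Cdh1 and Itga6 were lower, and all 3 were lower against the panel median. With DPG, Cdh1 was higher than with DSS alone (0.29) and Itgb6 was lower (-0.94). The 0.09 of Itga6 did not pass the test (limma adjusted p = 0.175), and in raw Ct all 3 were lower. Cd40lg, the CD40 ligand of T cells, was higher with DPG than with DSS alone (1.55, limma adjusted p = 0.00111; 0.34 and not called in raw Ct) while the other 3 lymphocyte genes were lower. In DSS+DPG against UN, Ifng (4.52) and Cd40lg (2.85) were higher and Il4 was lower (-0.92). The 0.52 of Il2 did not pass the test there (limma adjusted p = 0.0658). Every marker had a Ct below the limit of 38 in at least 1 array of each group, Il2 in DSS+DPG in only 1, and the part of these cells in the collagen values was not tested.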

How the data were processed

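The raw Ct of each well, a log2 scale with no normalization, was deposited by the authors together with the average Ct and average delta Ct per group, also log2 values, which they made with the web software of the array maker, of unstated version. The deposited average Ct lay within 0.1 cycle of the mean raw Ct for 21 of 21 collagen values. The deposited average delta Ct had as its reference the geometric mean Ct of Itga3, Mif and Hsp90ab1, whereas the methods name the 5 housekeeping genes used here. Sheets with the authors' fold changes, p-values and false discovery rates were not used.

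A missing Ct, or any beyond 38, was set to 38. For all panel genes, limma (3.58.1, under R 4.3.3) was run on minus delta Ct of the 9 arrays without a block, two-sided, with Benjamini-Hochberg adjustment over 84, 84 and 82 genes, since genes at the limit in both groups were not tested. The fit was tested on simulated data with known changes. The simulated arrays were independent and the housekeeping genes shifted together, so that test does not cover housekeeping genes that move apart or arrays that are not separate runs. Pairs of collagen genes were compared by exact permutation tests of their Ct difference. The number of arrays limits the precision. Groups came from the sample labels. The named genes are the 7 members, the housekeeping and marker genes, from each related list the 2 with the largest difference in each comparison and any that differ from the list's direction, and the 3 panel genes nearest in profile. The members and lists were chosen with earlier results of these data known. Promoter sequences came from RefSeq (GRCm38.p6). Alternatives were other references, a limit of 35, only genes with every Ct below 35, a fit of only the groups compared, a replicate block, a 2-sample test on 2^-delta Ct, arrays left out, and folds of at least 2 or 3.5. Plots used matplotlib 3.10.9 (Python 3.11.15).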

Additional observations from a re-analysis of the deposited data

How the results depend on the processing

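The choice of reference moved the results most. In DSS against UN the count of collagen genes called higher was 5 with the 5 housekeeping genes, 3 without Gapdh, Gusb or Hsp90ab1, also 3 in raw Ct, and 0 against the median Ct of the other panel genes. The count lower was 2 in raw Ct and 6 with that median. Of all 84 panel genes, 52 were higher with the 5 housekeeping genes, and 49, 50 and 48 without Gapdh, Gusb and Hsp90ab1. In raw Ct 48 were higher and 29 lower, and with the median 21 and 55. In DSS+DPG against DSS the panel median gave 3 higher and 2 lower, beside 52 and 22 of the 84. In DSS+DPG against UN 1 gene was higher without B2m, with Gapdh alone and with the panel median. Without B2m and with Gapdh alone, 23 and 24 of the 82 panel genes tested were higher there, and the panel's count with the panel median is not given here. With the panel median, DSS against UN turned to -1.04 for Col1a1, -1.41 for Col1a2, -0.05 for Col3a1, -1.02 for Col5a1, -1.33 for Col5a2 and -1.46 for Col5a3, and DSS+DPG against DSS to 1.57 for Col1a1, 0.15 for Col1a2, 0.24 for Col5a1, 0.18 for Col5a3 and 1.85 for Col14a1. Relative to the median change of the other panel genes, Col3a1 instead stood at 0.67 in DSS against UN. Likewise Col1a2, Col5a1 and Col5a3 stood at -0.55, -0.45 and -0.51 in DSS+DPG against DSS. Without Hsp90ab1, DSS against UN was -0.089 for Col1a2, -0.016 for Col5a2 and -0.14 for Col5a3, and Col14a1 in DSS+DPG against DSS was 0.10. In raw Ct, DSS against UN was -0.11 for Col1a2, -0.033 for Col5a2 and -0.16 for Col5a3, the last also turning to -0.045 without Gapdh. Col1a1 in DSS+DPG against UN was -0.32 against Itga3, Mif and Hsp90ab1 (by geometric mean) and -1.34 in raw Ct. These shifts follow from the reference itself, which takes the same amount from every gene.

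A fold of at least 3.5 left 0 genes higher and 0 lower in DSS against UN, and 2 lower in each of the other comparisons. A fold of at least 2 left 1 higher, Col3a1 (2.79-fold), and 0 lower in DSS against UN. The share of the panel passing 2-fold was not counted, so this count cannot be set beside it. The fold of at least 3.5 was run under each reference after seeing the data. In DSS against UN it gave 1 higher without B2m, with Gapdh alone and against Itga3, Mif and Hsp90ab1 (31% of the panel in each). With the panel median it gave 1 lower (26.2%). In DSS+DPG against DSS it gave 5 lower without Actb or without B2m (39.3% of the panel in each) and with Gapdh alone (40.5%). The same count came against Itga3, Mif and Hsp90ab1 (58.3%) and in raw Ct (70.2%). Without Gusb it gave 3 lower (35.7%), and with the panel median 0 lower (11.9%) and 1 higher (22.6%). In DSS+DPG against UN it gave 4 lower against Itga3, Mif and Hsp90ab1 (24.4% of the panel) and 6 in raw Ct (64.6%). With Gapdh alone it gave 1 (3.66%) and with the panel median 0 (2.44%). Over the arrays or replicate numbers left out, the count higher in DSS against UN was 3 to 5 and in DSS+DPG against UN 0 to 1, the count lower in DSS+DPG against DSS was 6 to 7, Col5a3 in DSS against UN was -0.031 to 0.14, and the change of Col5a3 minus Col5a1 in DSS+DPG against DSS was -0.16 to 0.32. The calls over the whole panel were not counted with arrays left out. With Col3a1 set 1 cycle later in DSS, an alternative chosen after seeing the data like the replicate numbers left out, the change of Col3a1 minus Col1a1 was 0.01 in DSS against UN and 2.16 in DSS+DPG against DSS. The 2-sample test lost the calls of Col5a2 in DSS against UN (adjusted p = 0.0537) and Col14a1 in DSS+DPG against DSS (0.0541), and the cause was not tested.

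Deviations of arrays with the same replicate number correlated between -0.186 and 0.338, and 4 of 9 correlations were over 0.1. Arrays with different numbers gave -0.345 to 0.288. The ranges overlap, so a pairing by number was not shown, and so few arrays cannot exclude it. With the replicate number as a block, the counts were 5 higher and 1 lower, 7 lower and 6 lower, as without it, and no call of a collagen gene changed. The limits of 35 cycles changed none of the counts of collagen genes.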

Other observations

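Over the 245 combinations of panel gene and group with a Ct in all 3 arrays, the Ct of replicate 3 lay strictly between those of replicates 1 and 2 in 187 (76.3%), that of replicate 1 in 25 and that of replicate 2 in 19, with 14 ties. For the collagen genes replicate 3 was the middle value in 12 of 21. Leaving out replicate 3 took the calls of Col1a2 and Col5a2 in DSS against UN, as given above, and left the other 3 genes called higher there. Among exchangeable arrays of a pool, each would be the middle value about equally often. Whether it was a separate run could not be settled from the files, and the SDs, SEs and p-values given above count it as one.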
